A study of Mus musculus with 24 samples.

Results

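The genes described here are 5 that make nitric oxide (NO) or govern its substrate arginine in MIN6, an insulin-secreting line that came from a mouse insulinoma. They were taken by gene symbol from the table of estimated counts, and all 5 were found among its 17696 genes: Nos2, Gch1, Ass1, Asl and Slc7a2. Nos2 encodes inducible NO synthase, which makes NO and citrulline from arginine. Gch1 encodes GTP cyclohydrolase 1, the first enzyme on the way to tetrahydrobiopterin, a cofactor that NO synthases need. Ass1 (argininosuccinate synthase) and Asl (argininosuccinate lyase) turn citrulline back into arginine, and Slc7a2 encodes the cationic amino acid transporter CAT2, which carries arginine into the cell. In β cells, IL-1β together with IFNγ is known to switch on Nos2, and NO made in this way inhibits mitochondrial enzymes and insulin secretion.

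The study asked how miR-146a-5p acts in β cells under inflammatory cytokines, and measured mRNA in 24 libraries in 6 groups of 4. Scr cells carried a lentiviral scrambled sequence, ZIP cells a construct that inhibits miR-146a-5p, and OE cells a construct that overexpresses it. Each line was sequenced untreated and, as Scr+Cy, ZIP+Cy and OE+Cy, after 24 h with IL-1β at 5 ng/ml, TNFα at 10 ng/ml and IFNγ at 100.0 ng/ml. All 3 lines had been selected with puromycin and grown up from single clones, so line and clone changed together and cannot be told apart. Scr and ZIP shared a vector backbone, whereas OE had another. The miRNA itself was not measured in these libraries. Replicates were numbered 1 to 4, and each number carried 1 tag in all groups (P65, P66, P67 or P68) whose meaning is not stated. There was no statement that they were separate cultures, so p values reflect the spread between these libraries, which may be technical.

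Levels are CPM, reads of a gene relative to the library's assigned reads after TMM scaling, and libraries held 26657792 to 37168232 assigned reads, so that 1 read was worth 0.027 to 0.0383 CPM. Calls needed both a 1.5-fold change and an unadjusted p value below 0.05 in edgeR's quasi-likelihood test, the limits the study used, and adjusted p values were computed after Benjamini and Hochberg over all 17696 genes. In bulk libraries, fewer cells of a kind and less RNA per cell cannot be told apart. All 8 β cell markers checked, among them Ins1, Ins2, Pdx1 and Mafa, had a mean of at least 1 CPM in every group. Their summed level was 15700 to 21500 CPM in Scr, 24200 to 26400 in ZIP and 38200 to 42000 in OE, and 16300 to 17700 CPM in Scr+Cy, 21100 to 23600 in ZIP+Cy and 24300 to 31600 in OE+Cy, so that the lines did not overlap at either treatment. Of macrophage markers, a cell type that can make much Nos2, 7 of 10 were measured, and their summed level was 0.744 to 4.82 CPM in untreated and 9.42 to 34 CPM in treated libraries. Most of the latter was Mpeg1, at up to 30.8 CPM, while Ptprc stayed at or below 0.422 CPM, Cd14 at or below 0.365 CPM and Csf1r at or below 1.17 CPM in all libraries. Of 4 endothelial markers 2 were measured, Pecam1 and Tek, and they summed to 0.0929 to 0.216 CPM in Scr, 0.182 to 0.695 in ZIP and 0.655 to 1.54 in OE, and to at most 4.62 CPM with cytokines. Fibroblast markers summed to 13.0, 35.9 and 44.1 CPM in replicate 1 of Scr, ZIP and Scr+Cy and to between 0.537 and 7.88 CPM in the other libraries. The part of these markers in the results below was not tested, beyond fits without the 3 libraries.

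For reference, the mature mmu-miR-146a-5p is encoded on the minus strand at chr11:43374435-43374456 (GRCm38.p6, RefSeq). It is shown, 5′ to 3′, because the ZIP and OE constructs were made to inhibit or overexpress it, with its seed (bases 2 to 8) in capitals. Of the 5 genes, 1 held the 7-base complement of the seed, AGTTCTC, in its 3′ UTR (GENCODE M21, transcript with the longest 3′ UTR). This was Gch1, with 1 site at chr14:47154530-47154556 (mm10, minus strand), printed with 10 bases on either side and the complement in capitals. None of the other 4 3′ UTRs held the 7 letters, and of 21193 genes searched in the same way 11.9% did. A match is a description of the sequence and was not tested as a target.
mmu-miR-146a-5p: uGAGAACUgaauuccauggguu
Gch1 site: tacaatgaagAGTTCTCcctctggctg

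With cytokines, Nos2 rose in all 3 lines, and Slc7a2 was lower in each line with no overlap of libraries, by more than 1.5-fold in OE alone. Gch1, Ass1 and Asl were not called in any cytokine response. In Scr+Cy against Scr, 1 of the 5 genes was called, Nos2, beside 10.6% of all genes. In ZIP+Cy against ZIP, 1 of 5 was called, again Nos2, beside 12.5% of all genes. In OE+Cy against OE, 2 of 5 were called, beside 21.0% of all genes, of which Nos2 rose and Slc7a2 fell. In ZIP against Scr, 2 of 5 were called (14.9% of all genes), Ass1 lower and Nos2 higher, the latter with an adjusted p of 0.0802. In OE against Scr, 2 of 5 were called (25.7% of all genes), Gch1 higher and Slc7a2 lower.

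Under cytokines, 2 of 5 were called in ZIP+Cy against Scr+Cy (15.8% of all genes), Nos2 higher and Ass1 lower. In OE+Cy against Scr+Cy it was 3 of 5 (28.5% of all genes), Nos2 and Gch1 higher and Slc7a2 lower. In OE+Cy against ZIP+Cy it was 4 of 5 (29.0% of all genes), the same 3 genes in the same directions and Ass1 higher. These comparisons share libraries and are not independent of each other. Shares among 5 genes near those of all genes say little about this group as a whole, and the values of each gene follow.

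Differences between the cytokine responses of 2 lines were tested as interactions in the same edgeR model and called at an adjusted p value under 0.05. For OE and Scr, 2 of 5 genes were called (20.0% of all genes), Asl and Slc7a2. For OE and ZIP, 3 of 5 were called (20.6% of all genes), Nos2, Ass1 and Slc7a2. For ZIP and Scr, 0 of 5 were called in edgeR (0.0565% of all genes), with 1 gene, Ass1, at an unadjusted p under 0.05, and DESeq2 also called 0 of 5.

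**Figure D1:**
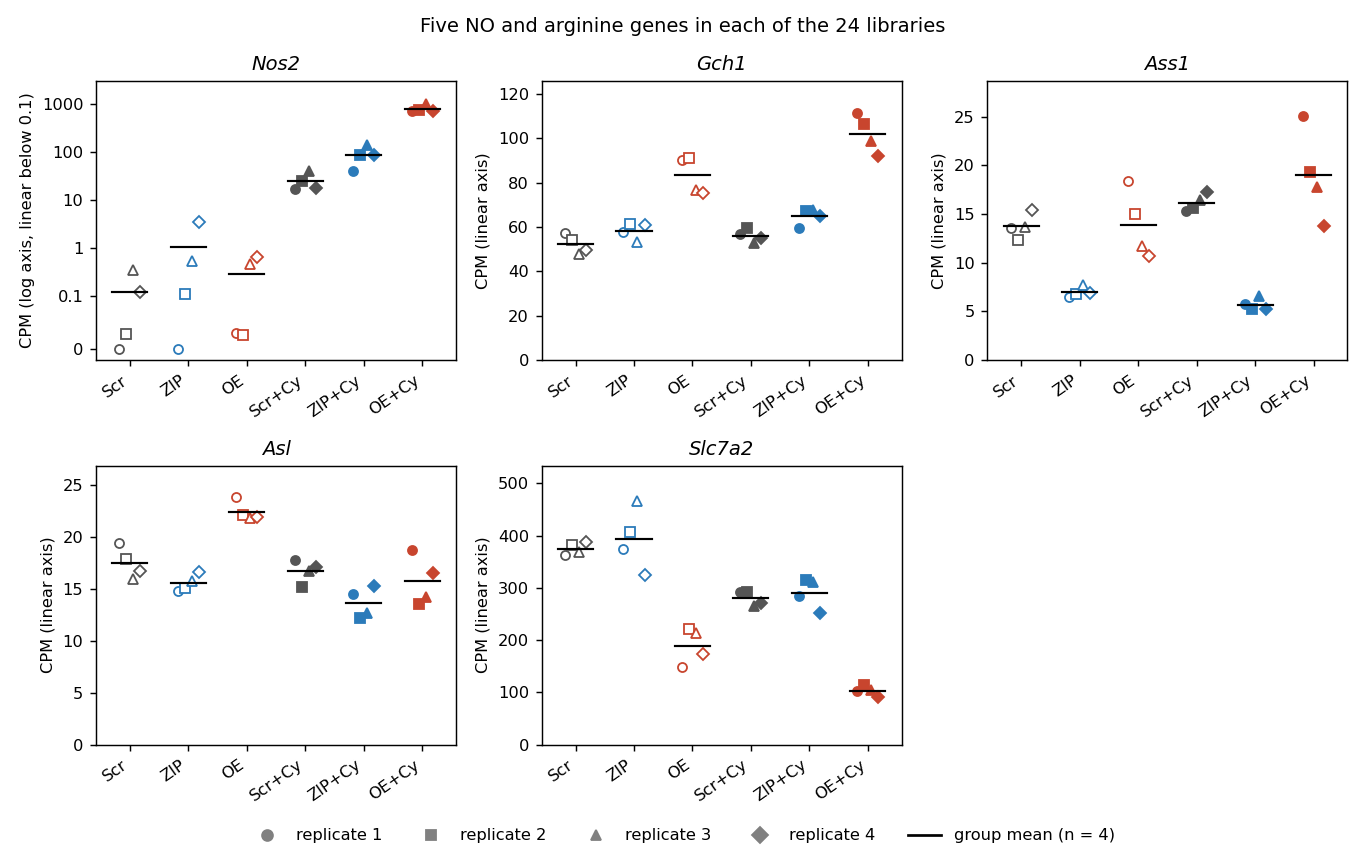
Level of each gene in each of the 24 libraries in CPM, by group, with 1 symbol per replicate number, open symbols for untreated and filled symbols for cytokine-treated libraries, and the group mean of 4 libraries as a line. Nos2 is on a log axis that is linear below 0.1, and the other 4 genes are on linear axes that start at 0. Nos2 separated all treated from all untreated libraries, Ass1 was lowest in both ZIP groups, and Slc7a2 was lowest in both OE groups.

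Nos2 (chromosome 11, 78920787 to 78960226, plus strand, mm10) was nearly silent without cytokines. The 12 untreated libraries together held 179 of its reads, of which 104 were in 1 library. Its level was 0, 0.0288, 0.344 and 0.124 CPM in Scr replicates 1 to 4, 0, 0.109, 0.527 and 3.49 CPM in ZIP, and 0.0302, 0.0272, 0.469 and 0.655 CPM in OE. The 3 untreated groups overlapped, and replicates 3 and 4 were above replicates 1 and 2 in each of them. With cytokines the level was 16.8, 24.3, 40.9 and 17.9 CPM in Scr+Cy, 41.1, 85.9, 137.6 and 86.7 CPM in ZIP+Cy, and in OE+Cy 704.3, 740.8, 1008 and 711.5 CPM. The lowest treated library was above the highest untreated one, the 3 treated groups did not overlap, and in each of them replicate 1 was lowest and replicate 3 highest.

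The cytokine response of Nos2 was a log2 fold change of 7.68 ± 0.775 (SE, adjusted p = 4.27e-08) in Scr, 6.37 ± 0.547 (adjusted p = 2.15e-09) in ZIP and 11.41 ± 0.650 (adjusted p = 5.84e-13) in OE. The untreated level rested on few reads, and the size of these responses changed with single untreated libraries left out. Without Scr replicate 3 it was 8.91 in Scr, without ZIP replicate 4 it was 8.56 in ZIP, and without OE replicate 4 it was 12.08 in OE. The response was larger in OE than in ZIP by 5.04 ± 1.12 on the log2 scale (adjusted p = 0.00248). Without ZIP replicate 4 the same difference was 2.86 (adjusted p = 0.241), so the call rested on that library. Between OE and Scr the difference was 3.74 ± 2.32 (adjusted p = 0.287), with a 95% interval of −1.05 to 8.53, and between ZIP and Scr it was −1.31 (adjusted p = 0.941), with an interval of −4.40 to 1.79. The difference between OE and Scr was 3.74 ± 1.57 in DESeq2 (adjusted p = 0.0597) and 3.71 ± 1.57 in an edgeR model of those 4 groups alone (adjusted p = 0.11). With replicate numbers as blocks it was 3.84 ± 2.03 (adjusted p = 0.182), and none of these fits called it. Without Scr replicate 3 it was 2.49 (adjusted p = 0.712). That between ZIP and Scr was −2.54 without Scr replicate 3 and turned to 0.88 without ZIP replicate 4.

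Among treated cells, where Nos2 was measured on 544 reads or more per library, it was far higher in OE+Cy than in Scr+Cy or ZIP+Cy. Its mean was 24.98 ± 11.1 CPM (SD, n = 4) in Scr+Cy, 87.8 ± 39.5 CPM in ZIP+Cy and, in OE+Cy, 791.2 ± 145 CPM. The log2 fold change of OE+Cy was 4.99 ± 0.424 against Scr+Cy (adjusted p = 5.42e-10) and 3.17 ± 0.386 against ZIP+Cy (adjusted p = 1.94e-07), that is 31.8-fold and 9.02-fold. ZIP+Cy was 3.52-fold above Scr+Cy, with a log2 fold change of 1.82 ± 0.381 (adjusted p = 7.26e-04), and all 4 of its libraries were above all 4 of Scr+Cy, though the highest Scr+Cy library, at 40.9 CPM, was next to the lowest ZIP+Cy library, at 41.1 CPM. DESeq2 did not call this last difference, at a log2 fold change of 1.83 and an adjusted p of 0.201, whereas it called both differences with OE+Cy. In edgeR with replicate numbers as blocks, ZIP+Cy against Scr+Cy was 1.79 ± 0.287 (adjusted p = 3.89e-05). Summed macrophage markers were at 9.42 to 19.1 CPM in Scr+Cy, 11.1 to 34 CPM in ZIP+Cy and, in OE+Cy, 13.3 to 29.5 CPM, lowest in replicate 1 of each group as Nos2 was. Mpeg1 made up most of each sum, with means of 14.4, 21.9 and 21.6 CPM, while Ptprc and Csf1r were at 0 in all 4 OE+Cy libraries. Of the treated groups, OE+Cy was highest in Cd14 and Cd68, as it was in Nos2. Means in Scr+Cy, ZIP+Cy and OE+Cy were 0.0154, 0.0176 and 0.241 CPM for Cd14 and 1.45, 1.27 and 2.39 CPM for Cd68. Itgam was at 0.147, 0.0254 and 0.084 CPM, and Lyz2 at 0.0317, 0.483 and 0.0655 CPM. Summed endothelial markers were at 0.758 to 0.893 CPM in Scr+Cy, 0.663 to 2.18 CPM in ZIP+Cy and 1.73 to 4.62 CPM in OE+Cy. The part of these markers in the differences of Nos2 was not tested.

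In untreated cells, ZIP replicate 4 stood apart at 104 Nos2 reads against 0, 3 and 17 in the other ZIP libraries. The log2 fold change of ZIP against Scr was 3.12 ± 1.31 (unadjusted p = 0.0261, adjusted p = 0.0802) and 3.10 (adjusted p = 0.0401) in a fit that took replicate numbers as blocks. Without ZIP replicate 4 it was 0.94 (adjusted p = 0.741), and the call was also lost without Scr replicate 1 (2.68, adjusted p = 0.161) or Scr replicate 2 (2.80, adjusted p = 0.154). The same library was also highest among untreated libraries for other genes that cytokines induce. Cxcl10, a chemokine, was at 31.15 CPM there and at 8.94 CPM or less in the other untreated libraries, and Gbp2, an interferon-induced GTPase, was at 37.56 CPM against 12.2 CPM or less. Irf1, a transcription factor that responds to interferon, was at 36.1 CPM against 30.1 CPM or less. Scr replicate 3 was second for Cxcl10 and Gbp2 and highest of the Scr libraries for Nos2. The part of this library-to-library course in the Nos2 differences between untreated lines was not tested. In OE against Scr, the log2 fold change of Nos2 was 1.25 ± 1.72 (adjusted p = 0.578) on 1 to 20 reads per OE library and 0 to 11 reads per Scr library. It was 0.59 without OE replicate 4 and 2.51 without Scr replicate 3, and was called in neither fit.

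**Figure D2:**
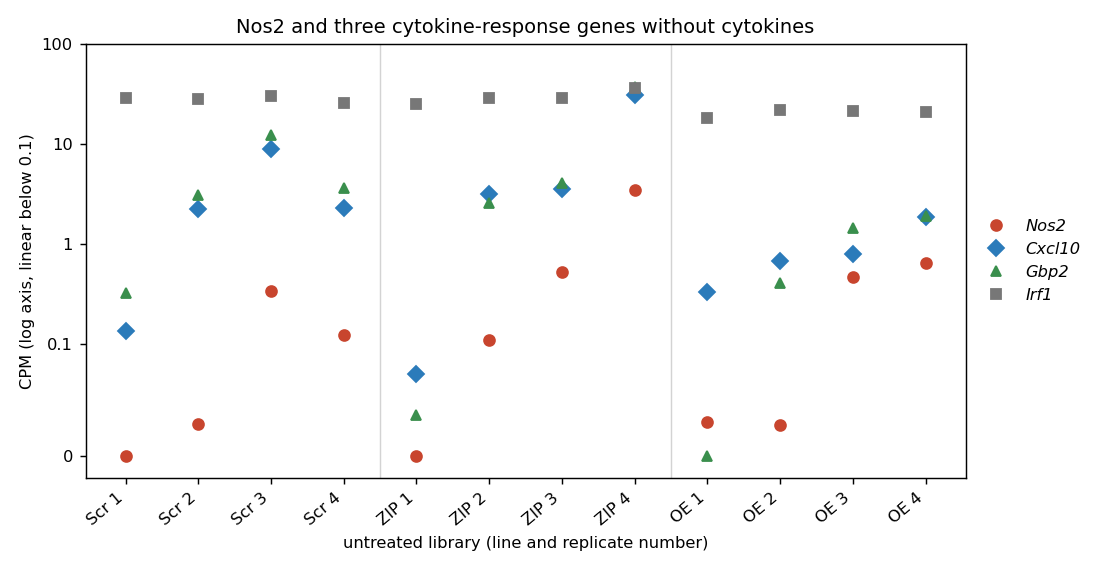
Levels of Nos2, Cxcl10, Gbp2 and Irf1 in CPM in each of the 12 untreated libraries, on a log axis that is linear below 0.1, with libraries named by line and replicate number. ZIP replicate 4 had the highest level of all 4 genes, with Nos2 at 3.49 CPM and Cxcl10 at 31.15 CPM.

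The other NO synthases were at a low level in all groups. Nos1, the neuronal enzyme, had group means of 0.748 to 2.20 CPM, and Nos3, the endothelial enzyme, of 0.486 to 1.32 CPM. In the cytokine responses, Nos1 was called in Scr, at 0.88 ± 0.355 with an adjusted p of 0.0912, and Nos3 in no line. The call of Nos1 was lost without Scr replicate 1 or 4 or Scr+Cy replicate 1, at 0.55 to 0.74. Without cytokines, Nos1 was higher in ZIP (log2 fold change 1.06 ± 0.354, adjusted p = 0.0259) and in OE (1.56 ± 0.347, adjusted p = 6.01e-04) than in Scr. Under cytokines it was called against Scr+Cy neither in ZIP+Cy (0.12 ± 0.340, adjusted p = 0.832) nor in OE+Cy (0.29 ± 0.337, adjusted p = 0.483). Nos3 was lower in OE+Cy than in Scr+Cy (−0.82 ± 0.336, adjusted p = 0.0442), a call lost without Scr+Cy replicate 3 (−0.71) or OE+Cy replicate 1 (−0.52). Of 9 genes for proteins that bind or regulate NO synthases, 0 were called in OE+Cy against OE by edgeR (5 had an unadjusted p under 0.05), 1 in ZIP against Scr and 2 in OE against Scr, where all genes were called at 21.0%, 14.9% and 25.7%. These counts changed by 1 with single libraries left out, to 1 (without OE+Cy replicate 1 or 4), 2 (without Scr replicate 1) and 1 (without Scr replicate 1 or 4). Nos1ap, which encodes an adaptor of the neuronal enzyme, was lower than in Scr in both other lines, from a mean of 2.23 ± 0.193 CPM in Scr to 0.617 ± 0.133 CPM in ZIP and 0.301 ± 0.125 CPM in OE (adjusted p = 1.99e-05 and 2.29e-08).

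Gch1 (chromosome 14, 47153895 to 47189413, minus strand) was expressed in all libraries and was higher in the OE line with and without cytokines. It was at 57.1, 54.2, 47.9 and 49.4 CPM in Scr, 57.6, 61.2, 53.4 and 60.8 CPM in ZIP, and 90.2, 91.2, 76.5 and 75.6 CPM in OE. Every OE library was above every library of Scr and ZIP, which overlapped. With cytokines it was at 57.0, 59.4, 52.6 and 54.9 CPM in Scr+Cy, 59.6, 67.2, 67.8 and 65.1 CPM in ZIP+Cy, and in OE+Cy 111.2, 106.4, 98.7 and 92.0 CPM. OE+Cy was above all other groups with no overlap. The log2 fold change of OE against Scr was 0.68 ± 0.0743 (adjusted p = 4.40e-08) without and 0.87 ± 0.0745 (adjusted p = 6.64e-10) with cytokines, and that of OE+Cy against ZIP+Cy was 0.65 ± 0.0742 (adjusted p = 6.74e-08).

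The cytokine response of Gch1 stayed under 1.5-fold in each line. It was 0.10 ± 0.0747 on the log2 scale in Scr (adjusted p = 0.408), 0.16 ± 0.0747 in ZIP (adjusted p = 0.131) and 0.29 ± 0.0734 in OE (adjusted p = 0.00215). The responses did not differ beyond their error, with a difference of 0.19 between OE and Scr (95% interval −0.0263 to 0.407, adjusted p = 0.222). ZIP against Scr was 0.16 ± 0.0747 (adjusted p = 0.121) without and 0.21 ± 0.0747 (adjusted p = 0.0345) with cytokines, also short of 1.5-fold.

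Most other genes of tetrahydrobiopterin synthesis and recycling were lower in OE+Cy than in Scr+Cy, where Gch1 was higher. In this comparison 5 of 6 such genes were called, beside 28.5% of all genes, with a median log2 fold change of −0.75 over the list and of 0.01 over all genes. The list was chosen with earlier results of these data known, so this share is a description and not an independent test. Without Scr+Cy replicate 2, or without OE+Cy replicate 3, 3 of the 6 were called. Pts, which encodes the second enzyme of the synthesis, was higher at 20.8 ± 3.72 CPM against 13.4 ± 0.899 CPM (log2 fold change 0.63 ± 0.122, adjusted p = 1.16e-04). Genes of cofactor recycling were lower: Qdpr, which encodes dihydropteridine reductase, was at 142 ± 6.25 CPM in OE+Cy and 264.2 ± 10.3 CPM in Scr+Cy (−0.90 ± 0.0590, adjusted p = 5.58e-12). Pcbd1 (−0.60 ± 0.0666) and Pcbd2 (−1.19 ± 0.107) were lower too. Pts fell short of 1.5-fold without OE+Cy replicate 4 (0.54), and Pcbd1 without Scr+Cy replicate 2 (−0.56) or OE+Cy replicate 3 (−0.55). Gchfr, for the feedback regulator of GTP cyclohydrolase 1, was lower as well but at 0.289 CPM or less in all group means, and it did not pass an adjusted p of 0.05 (0.0624). Its call was lost in 4 of 8 fits without 1 library (Scr+Cy replicates 1 and 2, OE+Cy replicates 1 and 3). Spr, for sepiapterin reductase, was not called, with means of 20.1 and 21.8 CPM. In untreated OE against Scr, where Gch1 was also higher, 1 of the 6 was called, Pcbd2 (−1.05, adjusted p = 9.85e-09), beside 25.7% of all genes. In the cytokine responses, 0 of these 6 were called by edgeR in Scr, ZIP or OE, beside 10.6%, 12.5% and 21.0% of all genes. Of the 6, 2, 2 and 4 had an unadjusted p under 0.05 short of 1.5-fold. In OE these were Pts (0.27 ± 0.120), Spr (0.42 ± 0.0938), Qdpr (−0.26 ± 0.0587) and Pcbd1 (−0.43 ± 0.0665).

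Ass1 (chromosome 2, 31470270 to 31520670, plus strand) was lower in the ZIP line than in the other 2 lines, with and without cytokines. Its level was 13.6, 12.3, 13.7 and 15.4 CPM in Scr, 6.48, 6.78, 7.75 and 6.85 CPM in ZIP, and 18.4, 15.0, 11.7 and 10.6 CPM in OE. All ZIP libraries were below all libraries of Scr and OE, which overlapped. Under cytokines it was 15.3, 15.6, 16.5 and 17.3 CPM in Scr+Cy, 5.76, 5.22, 6.55 and 5.26 CPM in ZIP+Cy, and in OE+Cy 25.1, 19.3, 17.8 and 13.8 CPM. The ZIP+Cy libraries again lay below all others of the treated cells. ZIP was 1.97-fold below Scr (log2 fold change −0.98 ± 0.156, adjusted p = 2.94e-05), and ZIP+Cy was 2.84-fold below Scr+Cy (−1.51 ± 0.159, adjusted p = 6.72e-08). OE+Cy was 3.33-fold above ZIP+Cy (1.74 ± 0.159, adjusted p = 1.72e-09).

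The cytokine response of Ass1 did not reach 1.5-fold in any line in the fit of all libraries. It was 0.24 ± 0.148 in Scr (adjusted p = 0.309), −0.29 ± 0.165 in ZIP (adjusted p = 0.207) and 0.45 ± 0.147 in OE (adjusted p = 0.0160). Without OE replicate 1, which had the highest untreated OE level, the response in OE was 0.61 (adjusted p = 0.00137) and was called. The difference between the responses of OE and ZIP was 0.74 ± 0.221 (adjusted p = 0.0196), and that between ZIP and Scr was −0.53 ± 0.222 (adjusted p = 0.702). OE+Cy against Scr+Cy was 0.23 ± 0.147 (adjusted p = 0.196), with a 95% interval of −0.0743 to 0.532. The estimated counts of Ass1 were off a whole number by more than 0.1 in 21 of 24 libraries, those of Slc7a2 in 16 and those of Nos2 in 3, and how such reads were assigned is not given in the sources used here. RefSeq lists a pseudogene of Ass1, Ass-ps1, and whether reads of Ass1 were shared with it was not tested.

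Of the 5 genes, Ass1 and Gch1 matched the RefSeq promoter table used here, and Nos2, Asl and Slc7a2 did not. Both promoters (250 bases before to 50 after the start, GRCm38.p6) were searched for 3 motifs of factors that cytokines activate and for a TATA box, which is not such a motif. On both strands, the letters sought were GGGA, any 4 bases and CC for NF-kB, TTC, any 3 bases and GAA for GAS, GAAA, any 2 bases and GAAA for IRF, and TATAAA for a TATA box. The promoter of Ass1 (chr2:31470020-31470319, plus strand) held 1 NF-kB match, GGGAGGGGCC, at base −152 from the start and none of the other 3. That of Gch1 (chr14:47189364-47189663, minus strand) held 1 TATA match on the opposite strand at base −188 and none of the other 3. Of 32851 promoters, 20.7% held an NF-kB match, 13.6% a TATA match, 8.3% a GAS match and 3.44% an IRF match. Both are shown because their genes differed between lines and yet stayed under 1.5-fold with cytokines, with the matches in capitals.
Ass1 promoter: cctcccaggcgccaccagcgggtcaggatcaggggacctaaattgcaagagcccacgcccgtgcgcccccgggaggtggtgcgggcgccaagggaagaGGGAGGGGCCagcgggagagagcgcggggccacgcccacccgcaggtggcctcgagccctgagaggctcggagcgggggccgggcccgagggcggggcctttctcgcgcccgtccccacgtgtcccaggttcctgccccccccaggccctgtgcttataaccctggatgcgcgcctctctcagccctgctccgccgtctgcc
Gch1 promoter: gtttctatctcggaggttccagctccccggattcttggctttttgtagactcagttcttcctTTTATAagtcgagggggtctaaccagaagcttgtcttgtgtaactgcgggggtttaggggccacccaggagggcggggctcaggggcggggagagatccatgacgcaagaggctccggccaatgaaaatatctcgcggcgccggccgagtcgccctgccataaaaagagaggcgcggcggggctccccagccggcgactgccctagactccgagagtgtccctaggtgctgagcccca

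Asl (chromosome 5, 130011258 to 130024381, minus strand) had the narrowest range of the 5 genes, with all 24 libraries between 12.2 and 23.9 CPM. Without cytokines it was at 19.5, 17.9, 16.0 and 16.8 CPM in Scr, 14.9, 15.1, 15.7 and 16.7 CPM in ZIP, and 23.9, 22.1, 21.9 and 21.9 CPM in OE. OE lay above the other 2 groups, which overlapped. With cytokines it was at 17.8, 15.2, 16.8 and 17.1 CPM in Scr+Cy, 14.5, 12.2, 12.7 and 15.3 CPM in ZIP+Cy, and in OE+Cy 18.8, 13.6, 14.2 and 16.6 CPM, and these groups overlapped. In 0 of the 3 cytokine responses and 0 of the 6 comparisons of lines at the same treatment did it reach 1.5-fold with all libraries. OE was above ZIP by 0.53 ± 0.0905 on the log2 scale (adjusted p = 2.97e-05). OE+Cy against OE was −0.51 ± 0.0902 (adjusted p = 5.92e-05) with no overlap of libraries, and −0.60, past the fold limit, without OE+Cy replicate 1. OE against Scr was 0.36 ± 0.0894 (adjusted p = 0.00178). The cytokine response in OE differed from that in Scr by −0.44 ± 0.128 (adjusted p = 0.0164). The difference from ZIP was −0.32 ± 0.129 (adjusted p = 0.0873), and in a fit that took replicate numbers as blocks it was called, at −0.32 (adjusted p = 0.0291). It was also called without OE+Cy replicate 1, at −0.41 (adjusted p = 0.0152).

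Relative to exon length, the ratio of Ass1 to Asl was lowest in the ZIP line in both conditions by its mean. It was 1.58 ± 0.23 (SD, n = 4) in Scr, 0.895 ± 0.0678 in ZIP and 1.23 ± 0.26 in OE, while treated cells had 1.94 ± 0.152 (Scr+Cy), 0.844 ± 0.147 (ZIP+Cy) and 2.42 ± 0.523 (OE+Cy). The ZIP+Cy libraries, at 0.687 to 1.04, lay below those of Scr+Cy (1.72 to 2.06) and OE+Cy (1.66 to 2.84), whereas untreated ZIP (0.823 to 0.985) overlapped OE (0.972 to 1.54). In OE the ratio was higher with cytokines than without, with no overlap.

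Slc7a2 (chromosome 8, 40862367 to 40922070, plus strand) was the most abundant of the 5 genes without cytokines and was lower in OE than in the other lines. Its level was 363.7, 381.6, 368 and 386.7 CPM in Scr, 373.3, 407.2, 466.5 and 325.1 CPM in ZIP, and 148.7, 221.2, 213.2 and 173.2 CPM in OE. All OE libraries were below all of Scr and ZIP, which overlapped. With cytokines it was 292.2, 291.4, 265.7 and 271.4 CPM in Scr+Cy, 284.6, 314.6, 310.7 and 251.9 CPM in ZIP+Cy, and in OE+Cy 102.9, 114.7, 104.7 and 91.8 CPM. Within each line the treated libraries lay below the untreated ones with no overlap, and OE+Cy was lowest of all groups. OE was 1.98-fold below Scr (log2 fold change −0.99 ± 0.108, adjusted p = 4.27e-08), and OE+Cy was 2.71-fold below Scr+Cy (−1.44 ± 0.110, adjusted p = 8.45e-11) and 2.81-fold below ZIP+Cy.

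The response of Slc7a2 to cytokines was called in OE, where it fell 1.83-fold (log2 fold change −0.87 ± 0.109, adjusted p = 5.13e-07). In Scr it was −0.42 ± 0.107 (adjusted p = 0.00685) and in ZIP −0.44 ± 0.107 (adjusted p = 0.00354), both short of 1.5-fold. The response in OE differed from that in Scr by −0.45 ± 0.152 (adjusted p = 0.0394) and from that in ZIP by −0.43 ± 0.152 (adjusted p = 0.0461). With replicate numbers as blocks they were −0.44 (adjusted p = 0.00933) and −0.43 (adjusted p = 0.011), and DESeq2's Wald test gave adjusted p values of 0.0234 and 0.0283. In fits that left out 1 library each, the first ranged from −0.55 to −0.34 and the second from −0.53 to −0.34. Each lost its call in 11 of 16 such fits, with adjusted p values up to 0.126 and 0.127. For OE and Scr these libraries were Scr replicates 1 to 3, OE replicates 2 and 3, Scr+Cy replicates 1, 2 and 4, and OE+Cy replicates 1, 3 and 4, and for OE and ZIP they were ZIP replicates 1, 2 and 4, OE replicates 2 and 3, ZIP+Cy replicates 1 to 3, and OE+Cy replicates 1, 3 and 4. Without the 3 libraries with fibroblast markers, their adjusted p values were 0.108 and 0.0946. The difference from ZIP also lost its call with the size factors of DESeq2 (adjusted p = 0.0524) and in a model of those 4 groups alone (0.108). The exons of Slc7a2 share 635 bases with Gm26584, a long noncoding RNA on the opposite strand. The use of strand in counting is not given in the sources used here, so whether reads of the 2 were told apart there is not known.

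Other genes of cationic amino acid transport were higher in OE+Cy than in Scr+Cy, where Slc7a2 was lower. Of the 5 on the list, 5 were called higher in this comparison, beside 28.5% of all genes called, and the median log2 fold change was 0.75 over the list and 0.01 over all genes. This list was chosen with earlier results of these data known, so its share is a description and not an independent test. Slc7a1, which encodes the housekeeping arginine transporter CAT1, had means of 160.5 ± 2.69 and 269.8 ± 39.4 CPM (Scr+Cy and OE+Cy, 0.75 ± 0.105 on the log2 scale, adjusted p = 1.74e-06), and Slc7a3, for CAT3, at 11.3 ± 2.73 CPM and 38.2 ± 6.57 CPM (1.76 ± 0.234, adjusted p = 8.36e-07). Slc3a2, the heavy chain shared by several amino acid transporters, and its partners Slc7a6 and Slc7a7 had log2 fold changes of 0.75, 0.59 and 2.51. That of Slc7a6 was 0.57, short of the fold limit, without OE+Cy replicate 1. Slc7a7 was low, at 1.62 ± 0.383 CPM in OE+Cy. In other comparisons in which Slc7a2 was called lower, 2 of the 5 were called higher in OE against Scr (25.7% of all genes), 2 in OE+Cy against ZIP+Cy (29.0%) and 1 in OE+Cy against OE (21.0%), or 2 without OE replicate 2. In the cytokine responses, Slc7a3 rose in OE (0.88 ± 0.224, adjusted p = 0.00237). By edgeR, 0 of the 5 were called in Scr and in ZIP, beside 10.6% and 12.5% of all genes, and 2 and 1 had an unadjusted p under 0.05. Without Scr replicate 2 or 4 or Scr+Cy replicate 3, 1 was called in Scr. The response in OE differed from that in Scr, at an adjusted p under 0.05, for 4 of the 5, beside 20.0% of all genes. It was higher for Slc7a1 (0.65 ± 0.147, adjusted p = 0.00292), Slc7a3 (1.43 ± 0.325, adjusted p = 0.00282) and Slc3a2 (0.49 ± 0.127, adjusted p = 0.00794), and lower for Slc7a6 (−0.33 ± 0.0815, adjusted p = 0.00605).

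**Figure D3:**
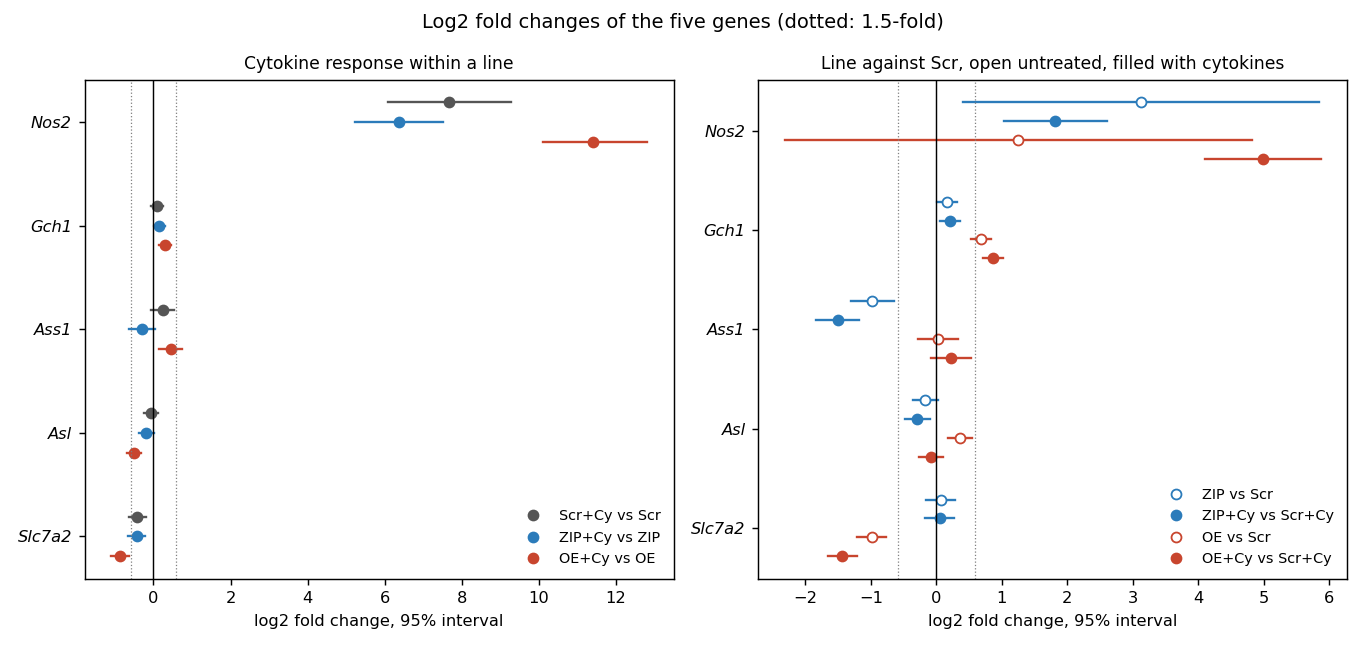
Log2 fold changes from edgeR with 95% intervals for each gene, with cytokine responses within Scr, ZIP and OE on the left and ZIP and OE against Scr on the right (open symbols untreated, filled symbols under cytokines). Dotted lines mark a 1.5-fold change. Nos2 stands far to the right in the 3 cytokine responses, at 6.37 to 11.41, Ass1 is to the left in both comparisons of ZIP with Scr, and Slc7a2 in both comparisons of OE with Scr.

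Of 13 measured genes that otherwise handle arginine, ornithine and the urea cycle, 2 were called in Scr+Cy against Scr, 4 in ZIP+Cy against ZIP and 4 in OE+Cy against OE, beside 10.6%, 12.5% and 21.0% of all genes. Without ZIP replicate 1 the 4 in ZIP became 2, as Gatm and Azin2 lost their calls, and without Scr replicate 2 or Scr+Cy replicate 4 the 2 in Scr became 1. Odc1, which encodes ornithine decarboxylase and opens polyamine synthesis, rose in Scr (144.2 ± 12.8 to 372.7 ± 51 CPM, log2 fold change 1.37 ± 0.125, adjusted p = 7.59e-09) and in ZIP (1.22 ± 0.125, adjusted p = 4.68e-08), and its means in OE were 199.7 ± 4.63 and 263.9 ± 57.8 CPM. Its response in OE was smaller than that in Scr by 0.97 ± 0.175 (adjusted p = 3.82e-04 for the difference). Oat, for ornithine aminotransferase, fell in OE from 128 ± 23.6 to 59.6 ± 7.03 CPM (−1.10 ± 0.108, adjusted p = 1.06e-08), and was higher in ZIP than in Scr (162 ± 18.5 against 76.0 ± 3.07 CPM, adjusted p = 2.04e-08). Its untreated OE libraries, at 96.6 to 153.9 CPM, also lay above those of Scr, at 71.85 to 78.53 CPM. Gatm, which makes guanidinoacetate from arginine on the way to creatine, had means of 14.4 ± 3.81 CPM in Scr, 4.82 ± 4.02 CPM in ZIP and 87.1 ± 13.7 CPM in OE, and fell with cytokines in OE to 33.5 ± 8.03 CPM (−1.38 ± 0.303, adjusted p = 5.90e-04) and in ZIP to 1.60 ± 0.525 CPM (−1.56 ± 0.465, adjusted p = 0.0142). The call in ZIP rested on replicate 1 of untreated ZIP, at 10.8 CPM and 1 of the 3 libraries with fibroblast markers, and without it the value was −0.81 (adjusted p = 0.156) and not called. ZIP against Scr was −1.59 ± 0.359 (adjusted p = 0.00141) with that library and −2.34 without it. Gamt, which completes creatine synthesis, fell with cytokines in ZIP (1.18 ± 0.212 to 0.637 ± 0.128 CPM, adjusted p = 0.0119) and in OE (1.08 ± 0.277 to 0.517 ± 0.143 CPM, adjusted p = 0.00166), and was also called lower in Scr (−0.61 ± 0.243, adjusted p = 0.0867). The call in Scr was lost without Scr replicate 2 (−0.44) and without Scr+Cy replicate 4 (−0.49). Azin2, for an inhibitor of antizyme, was lower in OE than in Scr, at 0.878 ± 0.0457 against 3.25 ± 0.697 CPM (adjusted p = 2.41e-07). With cytokines it was lower in ZIP (3.23 ± 1.12 to 1.93 ± 0.321 CPM, −0.74 ± 0.219, adjusted p = 0.0138), at −0.49 (adjusted p = 0.0976) and not called without ZIP replicate 1.

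Of 4 genes of methylarginine turnover, Ddah2, whose product degrades methylated arginines that inhibit NO synthases, was lower in OE than in Scr (2.65 ± 1.01 against 8.42 ± 1.22 CPM, log2 fold change −1.67 ± 0.229, adjusted p = 1.41e-06) and lower in OE+Cy than in Scr+Cy (−0.97 ± 0.231, adjusted p = 0.00102). Prmt1 and Prmt5, for enzymes that methylate protein arginines, were not called in any of the 8 comparisons of groups, and the group means of Ddah1 were 0.293 CPM or less, with 1 ZIP library at 1.17 CPM.

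The list of NO receptors, cGMP signalling and NO disposal held 9 measured genes. Among these was Hmox1, for the stress-induced haem oxygenase 1, an enzyme that acts on haem rather than NO. Hmox1 was called higher with cytokines in all 3 lines. Its means were 67.4 ± 9.89 and 106.5 ± 16.5 CPM in Scr and Scr+Cy, 41.7 ± 8.17 and 98.5 ± 15.6 CPM in ZIP and ZIP+Cy, and 22.1 ± 5.88 and 89.7 ± 12 CPM in OE and OE+Cy. The response in Scr was 0.66 ± 0.159 (adjusted p = 0.00438), and 0.56, short of the fold limit and not called, without Scr+Cy replicate 2. The response in OE exceeded that in Scr by 1.36 ± 0.229 (adjusted p = 2.00e-04). Pde5a, the cGMP phosphodiesterase, was near 8 CPM in Scr and Scr+Cy (8.29 ± 0.795 and 7.80 ± 0.993) and below 1 CPM in the 4 other groups (0.682 to 0.780), with log2 fold changes against Scr of −3.44 ± 0.295 in ZIP (adjusted p = 2.02e-09) and −3.41 ± 0.289 in OE (adjusted p = 5.25e-10). Gucy1a2, for a subunit of the NO receptor guanylate cyclase, was also lower in both lines than in Scr (8.89 ± 0.652 CPM in Scr, 5.90 ± 0.335 in ZIP and 5.65 ± 0.71 in OE, adjusted p = 0.00436 and 8.36e-04), though near the fold limit, which 4 of 8 and 2 of 8 fits without 1 library did not reach. Prkg1, for a cGMP-dependent protein kinase, was lower in OE than in Scr (1.32 ± 0.419 against 2.92 ± 0.513 CPM, adjusted p = 2.84e-04) and fell with cytokines in ZIP (−0.90 ± 0.247, adjusted p = 0.00805).

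Over all 7 lists, 5 of 48 measured genes were called in Scr+Cy against Scr, 9 in ZIP+Cy against ZIP, 7 in OE+Cy against OE and 21 in OE+Cy against Scr+Cy, where all genes were called at 10.6%, 12.5%, 21.0% and 28.5%. With an adjusted p under 0.05 in edgeR these counts were 2, 6, 6 and 19. Leaving out 1 library at a time gave 3 to 6 in Scr, the lowest without Scr replicate 1, and 6 to 12 in ZIP, the lowest without ZIP replicate 1. In OE it gave 6 to 8, and in OE+Cy against Scr+Cy 17 to 21.

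**Figure D4:**
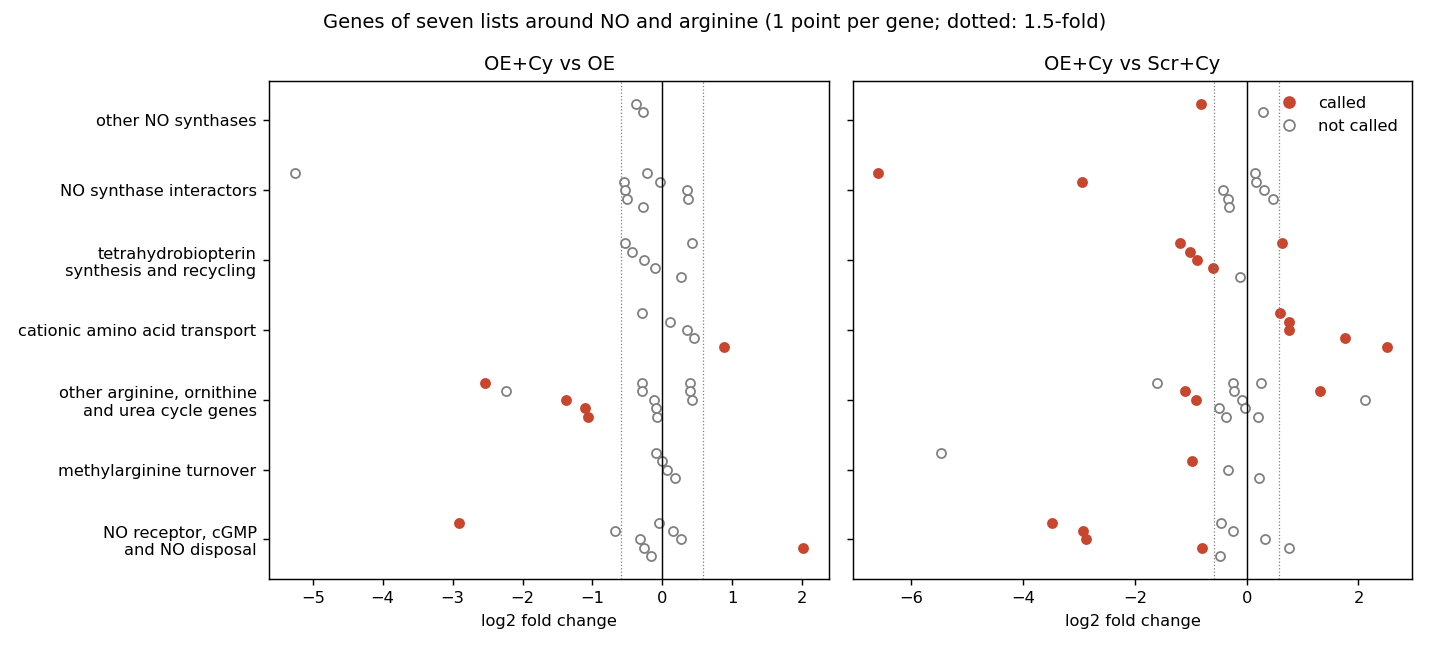
Log2 fold changes of the 48 measured genes of 7 lists around NO and arginine, with 1 point per gene, for OE+Cy against OE on the left and OE+Cy against Scr+Cy on the right. Filled points are called at 1.5-fold (dotted lines) and an unadjusted p under 0.05, and open points far from 0 are genes with few reads. All 5 cationic amino acid transport genes are called to the right in OE+Cy against Scr+Cy. The lists were chosen with earlier results of these data known.

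Compared per kilobase of exon, the genes changed rank between conditions. In Scr the mean level was 41.1 CPM per kilobase for Slc7a2, 8.34 for Gch1, 5.69 for Ass1, 3.63 for Asl and 0.0281 for Nos2. In OE+Cy, Nos2 came first at 179 CPM per kilobase, followed by Gch1 at 16.3, Slc7a2 at 11.3, Ass1 at 7.86 and Asl at 3.27. In Scr+Cy Nos2 was at 5.66 CPM per kilobase, below Gch1 at 8.95, and in ZIP+Cy it was at 19.9, above Gch1 at 10.4 and below Slc7a2 at 31.8. Ratios per length of Nos2 to Gch1 were, as mean ± SD of 4 libraries, 0.641 ± 0.316 (Scr+Cy), 1.89 ± 0.777 (ZIP+Cy) and 11.1 ± 2.41 (OE+Cy), and the libraries of Scr+Cy and ZIP+Cy overlapped (0.416 to 1.1 and 0.977 to 2.88).

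The order of group means gave each gene its own course. For Nos2 it was OE+Cy, ZIP+Cy, Scr+Cy, ZIP, OE and Scr, where the last 3 did not differ between neighbours (adjusted p = 0.154 and 0.578). For Gch1 it was OE+Cy, OE, ZIP+Cy, ZIP, Scr+Cy and Scr, where the last 4 did not differ between neighbours (adjusted p = 0.131 to 0.579). For Ass1 it was OE+Cy, Scr+Cy, OE, Scr, ZIP and ZIP+Cy, and the only neighbours that differed beyond their spread were Scr and ZIP (adjusted p = 2.94e-05). For Asl, OE was first, and below it the order Scr, Scr+Cy, OE+Cy, ZIP and ZIP+Cy held no neighbours that differed. For Slc7a2 it was ZIP, Scr, ZIP+Cy, Scr+Cy, OE and OE+Cy, where ZIP did not differ from Scr (adjusted p = 0.694) nor ZIP+Cy from Scr+Cy (0.767).

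The genes most like each of the 5 over the 24 libraries were found from Pearson's r of log2 CPM, as a description across libraries that share lines and treatment. They were Ubd (r = 0.996), Gm5431 (0.985) and Gm4070 (0.984) for Nos2, Dmpk (0.965), Cdcp1 (0.962) and Ccdc97 (0.959) for Gch1, and Marf1 (0.946), Agpat2 (0.928) and Enc1 (0.925) for Ass1. For Asl they were Aass (0.922), Kcnk16 (0.918) and Ivd (0.908), and for Slc7a2 B230219D22Rik (0.976), Rassf8 (0.975) and Arhgap24 (0.971). With Spearman's rho in place of r, 1 of the 3 genes stayed for Nos2, Gch1 and Asl and 0 for Ass1 and Slc7a2, so the choice depended on the measure. Among the 5 genes themselves, r was −0.897 for Gch1 and Slc7a2 and −0.592 for Nos2 and Slc7a2, and it was 0.111 for Nos2 and Ass1.

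Over genes close by on the chromosome, median differences between lines were small. Within 5 Mb of Ass1, the median log2 fold change of 129 expressed genes was −0.05 in ZIP against Scr, beside −0.98 for Ass1. The largest medians were also around Ass1, at −0.21 in OE against Scr (101 genes lower, 28 higher). In OE+Cy against Scr+Cy the median there was −0.22 (95 lower, 34 higher), while Ass1 itself was at 0.02 and 0.23. Within 5 Mb of Slc7a2 it was 0.14 over 20 genes in OE against Scr, beside −0.99. For Nos2 in OE+Cy against Scr+Cy it was 0.19 over 117 genes, beside 4.99, and for Gch1 it was −0.02 over 43 genes, beside 0.87.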

How the data were processed

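The 24 bulk libraries, from 3 MIN6 lines with or without cytokines, fall by their labels into 6 groups of 4. The submitters' processing notes name FastQC, STAR 2.7.8a, Partek 11.0.24.0204 and DESeq2 with the mm10 genome. The study's methods name RefSeq transcripts and other versions of STAR and Partek. The quantification method and its use of strand are not given in the sources used here. What the authors deposited were estimated counts for each gene, not normalized, and 30.3% of the values, as written, were not exactly whole. A second table from the authors, a signal scaled in each library by its median ratio factor, served only as an alternative.

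Estimated counts were rounded. A single model of 6 group means was fitted to all 24 libraries and 17696 genes with edgeR 4.0.16 in R 4.3.3 (TMM scaling, glmQLFit and glmQLFTest), after the scripts were tested on simulated data. Standard errors are the log2 fold change, without its sign, over the square root of F. Interactions compare 2 cytokine responses. Likeness used log2 CPM with a prior count of 2 and genes with a mean of at least 1 CPM. Gene lengths, 3′ UTRs and overlaps come from GENCODE M21. The 5 genes, the 7 lists, the markers and the likeness rule were chosen with earlier results of these data known. A gene of a list was named when it passed a fold change of 1.5 and an adjusted p of 0.05 in any comparison at 1 CPM or more, or to account for a short list. Others were chosen after their values were seen. Further genes of the group and the lists are not reported here.

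Alternatives were DESeq2 1.42.0, edgeR with the size factors of DESeq2 or with filterByExpr, models of only the groups compared, adjusted thresholds, the replicate number as a block, and leaving out each library. Leaving out together the 3 libraries with the highest fibroblast markers, and each library in turn for genes and counts of the lists, was added after the data were seen. Same-numbered libraries deviated together (r of 0.141 to 0.634 over 12670 genes) within each line and between ZIP and Scr, untreated and treated. The labels share these numbers without explanation. The main model did not use this pairing, so its errors and p values are unpaired. Only the fit with replicate numbers as blocks took the pairing into account. In the 3 comparisons of OE with another line at least 1 number had an r under 0.1. Depth was 26657792 to 37168232 assigned reads per library, and low counts carry counting error on top of the spread between libraries.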

Additional observations from a re-analysis of the deposited data

Results flagged for a closer look

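Over 30 combinations of gene and group, 3 had a library far from the other 3, and about 1 in 20 is reached by chance. They were Nos2 in ZIP, highest library 3.494 CPM (replicate 4), Nos2 in OE+Cy, highest library 1008 CPM (replicate 3), and Asl in OE, highest library 23.88 CPM (replicate 1). The cytokine response differed between OE and Scr, with an adjusted p under 0.05 in edgeR, for Asl (−0.4395 on the log2 scale) and Slc7a2 (−0.4487, lost in 11 of 16 fits without 1 library). It differed between OE and ZIP for Nos2 (5.044), Ass1 (0.7396) and Slc7a2 (−0.4329). Without ZIP replicate 4 the value of Nos2 was 2.86 (adjusted p = 0.241), and that of Slc7a2 lost its call in 11 of 16 fits without 1 library.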

How the results depend on the processing

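The number of genes called stayed within 1.5 times under the settings tried, apart from the following. With an adjusted threshold it was 1 in ZIP against Scr, and with a fold limit added it was 0 for the interaction of OE and Scr. With DESeq2 it was 1 in ZIP+Cy against Scr+Cy, and without the 3 libraries with fibroblast markers it was 1 for the interaction of OE and Scr. Leaving out 1 library at a time gave 1 to 2 genes in ZIP against Scr, 1 to 2 for the interaction of OE and Scr and 1 to 3 for that of OE and ZIP. The causes were not tested. Over all genes, the interaction of ZIP and Scr called 10 genes, 41 with DESeq2 and 45 with the replicate block, and a fold limit took that of OE and Scr from 3537 to 1517 and that of OE and ZIP from 3647 to 1512. With the replicate block, Asl was also called for OE and ZIP (−0.3183), and no other call of the 5 genes changed. Of 320 log2 fold changes under settings other than leaving out a library, 313 kept direction and call, and of 560 that left out a library, 520 did, and 0 called values turned direction. Nos2 rested on few reads in untreated libraries, 179 over all 12, and the part of depth in its values was not tested.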
